A study of Mus musculus with 3 samples.

Results

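The 10 genes described here, *Arpp21*, *Gng7*, *Ppp1r1b*, *Foxp1*, *Meis2*, *Penk*, *Tac1*, *Drd1*, *Adora2a* and *Pde10a*, are known for their use in striatal projection neurons, and they are 10 of the 14933 genes in the deposited count table of filtered cells. They were chosen because earlier results of these same data showed several of them high in a minority of the neuronal cells, so their height in those cells is given as a description and carries no test. Those cells, called atypical here, are 873 neuronal cells out of 17396 filtered cells. The authors set their clusters apart for low excitatory neuron markers, *Neurod6* and *Nrgn* among them, and also described housekeeping genes as high in them. They marked these cells as not retained for differential expression. The levels of the 10 genes in atypical cells were set beside those in the 11070 retained, or typical, neuronal cells. They were also set beside 5453 other filtered cells, which are outside the authors' table of neuronal cells. The authors filtered their neuronal clusters a second time by UMI counts and genes per cell. The other filtered cells may thus include neurons that this step dropped. Of the 10 genes, 6 (*Arpp21*, *Gng7*, *Ppp1r1b*, *Foxp1*, *Meis2* and *Tac1*) are in the 7174-gene table from which the authors clustered the neurons, so these 6 may have had a part in setting the cells apart. *Penk*, *Drd1*, *Adora2a* and *Pde10a* are not in that table. An earlier clustering by the authors, which picked the neuronal clusters, started from the 14933 genes. Any of the 10 may thus have had a part in parting neuronal from other filtered cells.

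Medium spiny projection neurons make up most of the striatum and receive dopamine and glutamate input. Direct-pathway cells carry the D1 dopamine receptor (*Drd1*), which couples through a G protein to adenylyl cyclase, and they make substance P from *Tac1*. Indirect-pathway cells carry the D2 receptor (*Drd2*) and an adenosine receptor (*Adora2a*) and make enkephalin from *Penk*. In both kinds cyclic AMP acts through protein kinase A on DARPP-32 (*Ppp1r1b*) and ARPP-21 (*Arpp21*). PDE10A degrades cyclic AMP, and *Foxp1* and *Meis2* encode transcription factors of developing striatal neurons. Several of these genes are also used in the cortex.

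The study asked how loss of *Tbr1*, a transcription factor of deep-layer cortical neurons, changes gene expression in layer 5. All 3 libraries came from the medial prefrontal cortex of C57Bl6 mice at postnatal day 5, from cells sorted for tdTomato, a red fluorescent reporter switched on by Cre. All 3 groups carried Rbp4cre, which drives Cre mainly in layer 5 projection neurons, and the tdTomato reporter. The wild-type library (Rbp4cre::tdTomato) carried no floxed *Tbr1*, the heterozygous library (Tbr1f/+::Rbp4cre::tdTomato) 1 floxed copy and the homozygous library (Tbr1f/f::Rbp4cre::tdTomato) only floxed copies. The number of mice behind each library is not given in the sources used here. With 1 library per genotype no difference between genotypes or cell groups could be tested, and no p-value is given. The 95% intervals (exact Poisson for levels, exact binomial for shares and ratios) cover counting error only.

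In the wild-type, heterozygous and homozygous libraries, in this order throughout, 304, 107 and 462 cells were atypical, which is 14.6%, 1.96% and 10.5% of the neuronal cells. There were 1778, 5357 and 3935 typical cells and 2873, 1398 and 1182 other filtered cells. Atypical cells gave 675832, 216259 and 745153 unique molecular identifiers (UMIs, each standing for 1 captured transcript), with medians of 2039, 1865 and 1459 per cell, close to the typical medians of 1902, 1743 and 1376. Levels are UMIs per 1000000 UMIs of the cell group (CPM). The mitochondrial share of a cell's UMIs had a median of 10.1%, 19.5% and 13.6% in atypical and 10.4%, 15.4% and 12.5% in typical cells. Pairs of libraries shared between 37 and 58 cell barcodes, and 11 atypical cells carried a barcode also seen in another library. *Tbr1* was counted at 27.5, 30.7 and 22.4 CPM in typical and at 10.4, 9.2 and 4.0 CPM in atypical cells, but counting at the 3′ end need not read the floxed part, so these values do not check the deletion.

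Promoters are shown for *Tac1* and *Meis2*, the members with a single annotated start in the RefSeq table, as examples of a peptide gene and a transcription factor gene. The windows run from 250 bases before to 50 bases after the start, on build GRCm38.p6. Capitals in the *Tac1* window mark CGTCA, the reverse complement of TGACG, which is the core of the cyclic AMP response element. The *Meis2* window holds none of the searched motifs.
*Tac1*, chr6:7554811-7555110, plus strand: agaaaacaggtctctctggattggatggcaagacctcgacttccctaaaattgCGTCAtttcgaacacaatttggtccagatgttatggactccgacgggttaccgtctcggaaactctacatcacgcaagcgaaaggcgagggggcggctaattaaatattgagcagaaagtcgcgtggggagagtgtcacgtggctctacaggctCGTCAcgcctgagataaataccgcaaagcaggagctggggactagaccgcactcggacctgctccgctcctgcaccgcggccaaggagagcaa
*Meis2*, chr2:116064570-116064869, minus strand: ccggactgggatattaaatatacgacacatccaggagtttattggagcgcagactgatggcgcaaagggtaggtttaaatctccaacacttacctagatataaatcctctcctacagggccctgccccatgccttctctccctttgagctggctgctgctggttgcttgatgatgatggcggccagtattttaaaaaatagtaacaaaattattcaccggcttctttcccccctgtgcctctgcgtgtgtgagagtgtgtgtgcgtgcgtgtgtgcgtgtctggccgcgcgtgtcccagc
Motifs were searched on both strands, with no overlaps between them: TGTTTAC for forkhead factors such as *Foxp1*, TGACAG for Meis factors, and TGACG. The table held 20 windows for 7 members. TGTTTAC was in 0 of them and in 3.65% of all 32817 windows of that length. TGACAG was in 7 (of *Arpp21*, *Foxp1* and *Gng7*) and in 19.2% of all windows. TGACG was in 6 (of *Arpp21*, *Foxp1*, *Gng7* and *Tac1*) and in 20.8% of all windows.

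Summed over the 10 members, atypical cells held 1838 CPM (1737 to 1943) in the wild-type, 2409 CPM (2207 to 2625) in the heterozygous and 2582 CPM (2468 to 2700) in the homozygous library, from 1242, 521 and 1924 UMIs. Typical cells held 436, 356 and 425 CPM and other filtered cells 654, 505 and 599 CPM. The lowest atypical sum was thus above every sum in the other cell groups. The ratio of atypical to typical cells was 4.21, 6.76 and 6.08, or 2.07 (1.97 to 2.18), 2.76 (2.62 to 2.89) and 2.60 (2.52 to 2.69) on the log2 scale. Atypical cells held 5.21%, 1.45% and 7.86% of all UMIs of filtered cells but 14.7%, 8.12% and 31.6% of the UMIs of the 10 members.

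The 3 members of the cyclic AMP and G-protein signaling chain with the most UMIs were *Arpp21*, *Gng7* and *Ppp1r1b* (gene positions are from the GENCODE annotation of GRCm38). *Arpp21* (chr9:112065091-112235938), whose product is a cyclic AMP-regulated phosphoprotein, was at 698 (637 to 764), 846 (728 to 978) and 1095 (1021 to 1173) CPM in atypical cells, against 122, 87.8 and 107 CPM in typical cells. The cell groups did not overlap, and log2 ratios were 2.52 (2.33 to 2.71), 3.27 (3.03 to 3.50) and 3.35 (3.20 to 3.50). *Arpp21* alone gave 472, 183 and 816 of the members' UMIs in atypical cells. *Gng7* (chr10:80948624-81014945), a G-protein gamma subunit of the striatal adenylyl cyclase pathway, was at 327 (285 to 373), 795 (681 to 923) and 568 (515 to 624) CPM against 83.4, 93.7 and 104 CPM. It was lowest in the wild-type atypical cells, yet above every typical value there too, with log2 ratios of 1.97, 3.09 and 2.45. *Ppp1r1b* (chr11:98348404-98357796), the DARPP-32 gene, was at 170.2, 240.5 and 289.9 CPM against 12, 14.9 and 23.0 CPM. Its log2 ratios of 3.83 (3.31 to 4.36), 4.02 (3.53 to 4.48) and 3.65 (3.34 to 3.97) varied little between libraries, and atypical cells held 42.6%, 18.6% and 52.2% of all its UMIs in filtered cells. *Pde10a* (chr17:8525372-8986648) gave 19, 10 and 20 UMIs in atypical cells, which is 28.1, 46.2 and 26.8 CPM against 3.81, 4.42 and 5.27 CPM in typical cells.

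**Figure D1:**
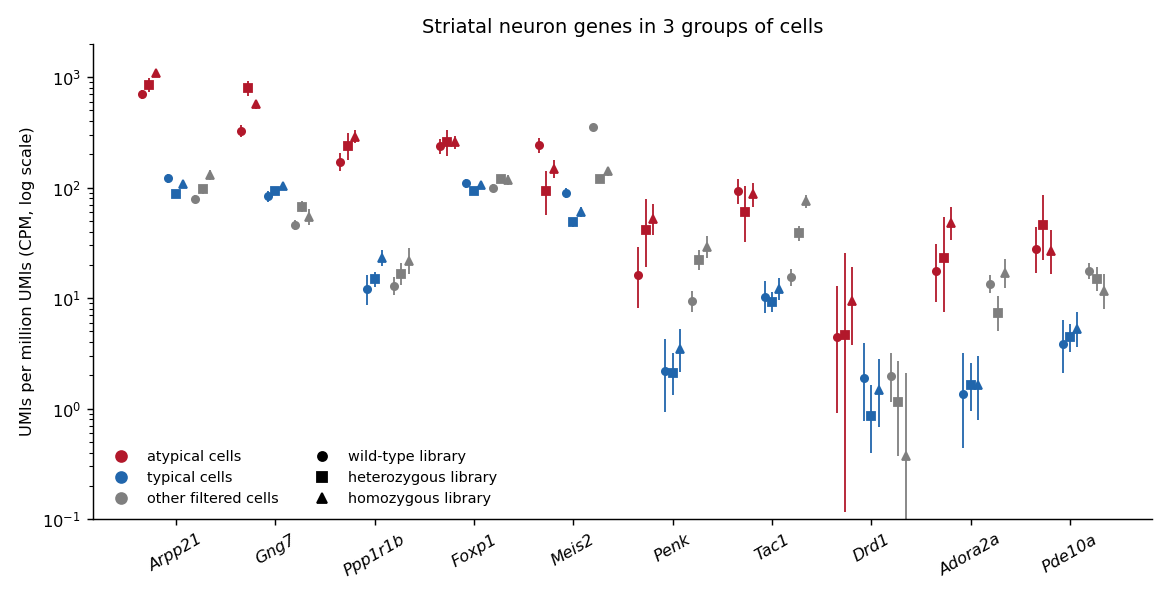
Level of each member (CPM, log axis) in atypical, typical and other filtered cells of the 3 libraries, 1 point per library with its exact 95% Poisson interval, cut off at the bottom of the axis for Drd1. Arpp21, Gng7 and Ppp1r1b stand above both other cell groups in every library, while Meis2 is at similar or higher levels in other filtered cells.

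The receptors were sparse. *Drd1* (chr13:54051183-54055705) gave 3, 1 and 7 UMIs in atypical cells, or 4.44, 4.62 and 9.39 CPM, against 1.91, 0.864 and 1.48 CPM in typical cells. Only the homozygous log2 ratio, 2.67 (1.01 to 4.26), had an interval above 0, and the others were 1.22 (-1.36 to 3.35) and 2.42 (-3.03 to 5.27). *Adora2a* (chr10:75316877-75334784) gave 12, 5 and 36 UMIs, or 17.8, 23.1 and 48.3 CPM against 1.36, 1.63 and 1.65 CPM. All 3 of its intervals lay above 0, with log2 ratios of 3.70 (2.10 to 5.56), 3.83 (2.03 to 5.32) and 4.88 (3.84 to 6.05). *Drd2*, the D2 receptor that defines indirect-pathway cells, had 0 UMIs in filtered cells and 1 UMI over all barcodes, and *Chrm4*, a muscarinic receptor of direct-pathway cells, had 0 and 4. A count of 0 in 873 atypical cells allows a share of up to 0.344% of cells with a *Drd2* UMI. *Drd1* for comparison had 134 UMIs over all barcodes, of which 59 were in filtered cells.

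Both peptide genes were higher in atypical than in typical cells. *Tac1* (chr6:7554879-7565834), which encodes substance P, was at 93.2, 60.1 and 87.2 CPM (63, 13 and 65 UMIs) against 10.4, 9.31 and 12.2 CPM. Its log2 ratios were 3.17 (2.57 to 3.79), 2.69 (1.73 to 3.53) and 2.84 (2.34 to 3.34), with no overlap between the cell groups. *Penk* (chr4:4133531-4138819), the enkephalin precursor, was at 16.3, 41.6 and 52.3 CPM from 11, 9 and 39 UMIs, against 2.18, 2.11 and 3.46 CPM. Its log2 ratios were 2.90 (1.45 to 4.42), 4.30 (3.0 to 5.48) and 3.92 (3.12 to 4.76). No atypical cell held more than 8 *Tac1* or 3 *Penk* UMIs, whereas single other filtered cells held up to 31, 37 and 34 *Tac1* UMIs and up to 11, 17 and 15 *Penk* UMIs.

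The transcription factors had the smallest ratios among members whose intervals lay above 0. *Foxp1* (chr6:98925338-99522721), a forkhead factor of striatal and of some cortical projection neurons, was at 238, 259 and 258 CPM in atypical and 109.5, 92.9 and 107 CPM in typical cells. The levels hardly varied between libraries, and the log2 ratios were 1.12 (0.85 to 1.39), 1.48 (1.06 to 1.87) and 1.27 (1.03 to 1.51). *Meis2* (chr2:115863064-116065839), a homeobox factor, was at 244, 92.5 and 148 CPM against 89.6, 48.7 and 59.8 CPM. Its wild-type typical level was close to its heterozygous atypical level, and its log2 ratios were 1.45 (1.17 to 1.72), 0.93 (0.20 to 1.57) and 1.31 (0.98 to 1.62).

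Genes were ranked only if the mean CPM of both cell groups was at least 20. Among those genes, 3.31% in the wild-type (145 of 4375), 3.95% in the heterozygous (168 of 4249) and 2.08% in the homozygous library (88 of 4239) were at least 2-fold higher in atypical than in typical cells. Of the members, 6, 8 and 8 passed that minimum and 6, 7 and 8 of them were at least 2-fold higher; without the minimum it was 10, 9 and 10 of all 10 members. Because this contrast chose the members, nothing is read from these counts. The ratio nearest the 2-fold threshold was that of *Meis2* in the heterozygous library, just below it, and the next was that of *Foxp1* in the wild-type library, just above it.

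**Figure D2:**
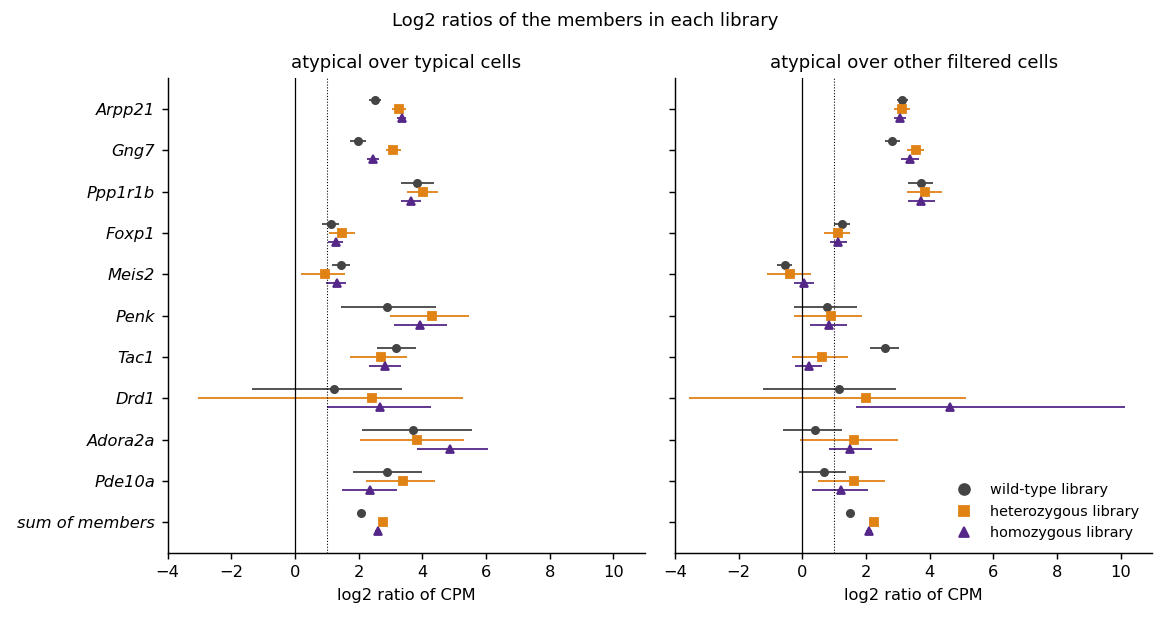
Log2 ratio of each member in atypical over typical cells (left) and over other filtered cells (right), 1 point per library with its exact 95% interval from the counts and a dotted line at 2-fold. Over typical cells every point is above 0, while over other filtered cells Meis2 is at -0.55, -0.37 and 0.07 and the peptide and receptor genes spread widely.

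RNA free in the suspension reaches every droplet, so levels were set beside droplets of 100 to under 500 UMIs, called empty here, and beside reference cells, which are other filtered cells with at least 5 UMIs of microglial genes and should not use the striatal genes. The members summed to 479, 432 and 556 CPM in empty droplets and to 291, 273 and 307 CPM in reference cells. In every library the empty droplets were thus above the typical sum and the reference cells below the typical sum. Atypical cells were above empty droplets by 4.74-, 7.20- and 5.97-fold for *Arpp21*, by 6.98-, 8.09- and 6.50-fold for *Ppp1r1b* and by 2.33-, 1.49- and 2.13-fold for *Meis2*. To compare shares of cells at equal depth, each cell was thinned to 1000 UMIs, which left out 0 cells. Then 44.4%, 55.1% and 60.0% of atypical cells had an *Arpp21* UMI, against 11.6%, 8.21% and 9.86% of typical and 3.06%, 3.82% and 5.33% of reference cells, whose median depths before thinning were 3130, 2539 and 2061 UMIs. Without thinning the *Arpp21* shares in atypical cells were 64.1%, 71.0% and 76.4%. For *Ppp1r1b* the thinned shares were 18.8%, 24.3% and 26.0% in atypical, 1.12%, 1.42% and 2.16% in typical and 1.02%, 0.763% and 2.67% in reference cells. For *Drd1* the thinned shares of 0.329%, 0% and 0.866% rested on at most 4 cells and could not be told from background at this depth.

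The members were also set beside other filtered cells. The rule for the members used this contrast too, so these values are a description. *Arpp21* had log2 ratios of 3.14, 3.13 and 3.07, *Gng7* of 2.83, 3.56 and 3.38, and *Ppp1r1b* of 3.72, 3.85 and 3.73. These 3 signaling genes were thus 7.11- to 14.4-fold higher than in other filtered cells. *Foxp1* was at 1.25, 1.11 and 1.13. *Pde10a* had log2 ratios of 0.67 (-0.10 to 1.37), 1.62 (0.49 to 2.59) and 1.20 (0.32 to 2.06), and *Adora2a* of 0.39 (-0.61 to 1.25), 1.64 (-0.08 to 3.01) and 1.51 (0.84 to 2.18), so that for both the wild-type interval reached below 0. Without cells holding hemoglobin UMIs, the wild-type ratio of *Adora2a* was -1.0.

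*Tac1*, *Penk* and *Meis2* were also counted in other filtered cells. *Tac1* was at 15.4, 38.9 and 75.2 CPM in other filtered cells, giving log2 ratios of 2.59 (2.14 to 3.04), 0.63 (-0.31 to 1.44) and 0.22 (-0.21 to 0.63), so that the wild-type library stood apart. These ratios rest on few other filtered cells, since before thinning 2.02%, 3.58% and 3.89% of them had a *Tac1* UMI, against 14.5%, 11.2% and 11.9% of atypical cells. *Penk* was at 9.40, 22.2 and 29.3 CPM there, with log2 ratios of 0.79 (-0.27 to 1.71), 0.91 (-0.27 to 1.89) and 0.84 (0.24 to 1.41), while 1.39%, 2.15% and 2.03% of these cells had a *Penk* UMI against 3.62%, 6.54% and 7.58% of atypical cells. *Meis2* was at 357, 119 and 141 CPM in other filtered cells, from 3077, 516 and 374 UMIs. It was higher in other filtered than in atypical cells in the wild-type library, with a log2 ratio of -0.55 (-0.78 to -0.32), and the intervals of -0.37 (-1.09 to 0.27) and 0.07 (-0.25 to 0.38) included 0. The size of this difference depended on the scaling. DESeq2 size factors, which moved the median gene of this contrast by 0.46, 0.33 and 0.52, gave *Meis2* -0.09, -0.04 and 0.59. The summed members were higher than in other filtered cells in every library, by 1.49 (1.40 to 1.58), 2.25 (2.11 to 2.39) and 2.11 (2.01 to 2.21), where the median gene was at -0.40, -0.29 and -0.40. Of the ranked genes 2.42%, 2.4% and 2.09% were at least 2-fold higher in atypical than in other filtered cells, as were 5 of 7, 5 of 8 and 5 of 8 members. Because the rule used this contrast, nothing is read from these counts.

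Some other filtered cells held many members at once. Without thinning, 54, 32 and 24 of them had at least 4 members, 110 in all with a median of 3659 UMIs. These 110 cells held 200 of the *Tac1* UMIs of other filtered cells, which were 133, 168 and 200 in the 3 libraries. Pooled, these 110 cells held *Tac1* at 494 CPM, *Penk* at 121 CPM, *Pde10a* at 128 CPM and *Foxp1* at 499 CPM. They also held *Arpp21* at 785 CPM, *Ppp1r1b* at 235 CPM, *Rxrg* (a retinoid receptor of striatal neurons) at 148 CPM and *Gad2* (a GABA-synthesizing enzyme) at 74.1 CPM. The excitatory marker *Nrgn* was at 1401 CPM in them. The pooled values hide differences between libraries, where *Penk* was at 43.3, 156 and 321 CPM, *Tac1* at 433, 447 and 838 CPM and *Arpp21* at 602, 773 and 1497 CPM. Having been picked by these counts, the cells are described and not compared.

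The members were found together in single atypical cells. Joint detection was itself part of how the members were chosen, so all values of it are a description. After thinning, at least 2 of the 10 were detected in 45.1% (39.4% to 50.8%), 57.0% (47.1% to 66.5%) and 60.8% (56.2% to 65.3%) of atypical cells. In typical cells it was 6.02%, 4.11% and 5.16%, in other filtered cells 8.56%, 5.22% and 8.63%, and in reference cells 2.04%, 1.53% and 2.67%. At least 3 members were detected in 20.1%, 23.4% and 25.3% of atypical and 0.562%, 0.224% and 0.686% of typical cells. Without thinning the shares with at least 2 were 67.1%, 77.6% and 78.6% of atypical, 18.3%, 12.5% and 11.3% of typical and 17.3%, 11.5% and 9.33% of reference cells. After thinning, 80 of 304, 12 of 107 and 48 of 462 atypical cells had no member UMI, 140 in all. Before thinning 59 had none, so a count of 0 after thinning does not show that a cell lacked the genes. With the broadly used *Arpp21*, *Gng7*, *Foxp1* and *Meis2* left out, at least 2 of the remaining 6 were detected in 4.93%, 5.61% and 5.41% of atypical cells, so most of the joint detection rested on these 4 genes. In typical cells that share was 0%, 0.075% and 0.102%, and in other filtered cells 0.174%, 0.572% and 0.677%. At least 1 of the remaining 6 was in 30.3%, 33.6% and 39.6% of atypical, 2.87%, 3.25% and 4.32% of typical and 5.67%, 5.79% and 8.38% of other filtered cells.

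**Figure D3:**
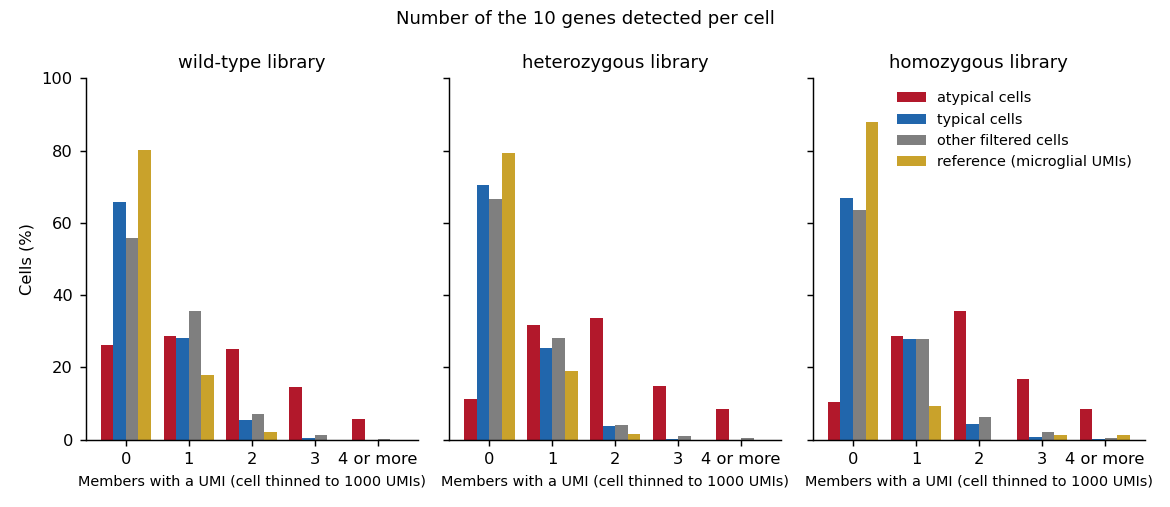
Share of cells (percent) by the number of members detected after each cell was thinned to 1000 UMIs, for atypical, typical, other filtered and reference cells of each library. Most typical and reference cells have no member, whereas most atypical cells have at least 1 and 20.1% to 25.3% of them have at least 3.

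Within the atypical cells, joint detection was set against what independent detection at each gene's own share would give. Over the 45 pairs of members, 326 pair detections were observed and 263 expected in the wild-type library (1.24-fold), 138 and 130 in the heterozygous (1.06-fold) and 670 and 639 in the homozygous library (1.05-fold). Of the 45 pairs, 20, 19 and 24 were above expectation. Among the pairs above it pooled over libraries, *Arpp21* was found with *Ppp1r1b* in 132 cells (112 expected), with *Tac1* in 51 (38.5 expected) and with *Penk* in 23 (15.3 expected). *Ppp1r1b* and *Tac1* met in 24 cells, where 16.6 were expected. *Arpp21* and *Pde10a* met in 9 cells, below the 13.0 expected. In the wild-type library an *Arpp21* UMI was present in 27.9% of atypical cells with no other member, 47.2% of those with 1 and 62.1% of those with 2 or more. These shares were 52.0%, 53.3% and 59.5% in the heterozygous and 52.5%, 59.2% and 65.5% in the homozygous library. *Ppp1r1b* went from 8.05% to 18.4% and 26.9% in the wild-type and from 7.69% to 19.5% and 32.1% in the heterozygous, but was level in the homozygous library, at 27.3%, 27.2% and 24.8%. *Tac1* went from 3.61% to 8.70% and 13.2% in the wild-type, from 0% to 5.56% and 6.78% in the heterozygous and from 2.04% to 8.33% and 9.29% in the homozygous library. The first heterozygous shares rested on 1 of 13 cells for *Ppp1r1b* (0.195% to 36.0%) and 0 of 12 for *Tac1* (0% to 26.5%). *Meis2* varied less, with ranges of 17.5% to 19.8%, 5.71% to 8.47% and 14.7% to 18.6% over the libraries. Thinning matched these cells in UMIs only, and the part of genes per cell and mitochondrial share in joint detection was not tested.

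**Figure D4:**
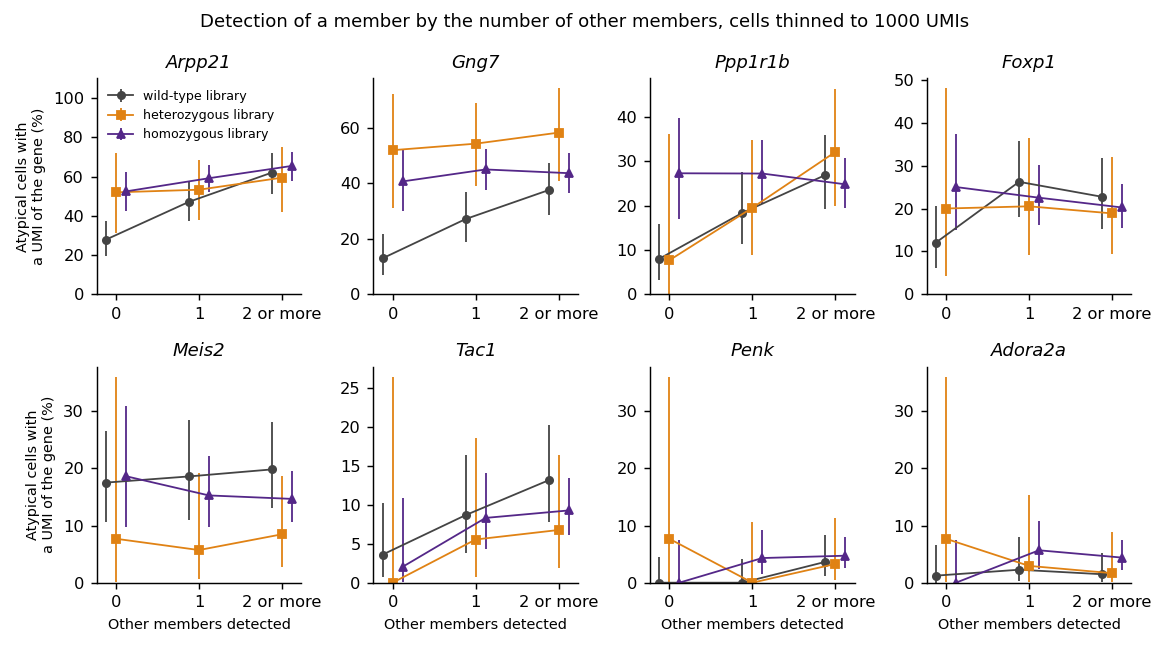
Share of atypical cells with a UMI of each member (percent, cells thinned to 1000 UMIs; the sparse Drd1 and Pde10a are left out) by whether 0, 1 or at least 2 of the other 9 members were detected, with exact 95% binomial intervals. Arpp21 goes from 27.9% to 62.1% in the wild-type library, and Meis2 stays between 17.5% and 19.8% there.

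Markers of the direct and indirect pathways are also members, so their joint detection is a description too. Without thinning, 42, 11 and 51 atypical cells had *Drd1* or *Tac1* but neither *Adora2a* nor *Penk*, 18, 10 and 56 had only *Adora2a* or *Penk*, and 3, 2 and 9 had both kinds. Over the 3 libraries 14 cells had both, where 13.2 were expected from independent detection, and 671 of 873 had neither. The share with a direct-pathway gene was alike in the libraries, at 14.8%, 12.1% and 13.0%, and that with an indirect-pathway gene was 6.91%, 11.2% and 14.1%. By library, *Arpp21* was at 993, 982 and 1150.4 CPM in direct-only cells, at 1025, 734 and 1430 CPM in indirect-only cells and at 610.1, 844 and 1017 CPM in cells with neither kind. The order of the 3 kinds of cell was not the same in each library. *Ppp1r1b* was at 149, 256 and 294 CPM in cells with neither kind, where typical cells had 11.99, 14.9 and 23.0 CPM. Cells with neither marker thus still held both signaling genes above the typical level in each library. Over the 3 libraries pooled, which entered these kinds of cell in unequal shares, *Pdyn*, a peptide gene of direct-pathway cells, rested on few UMIs. It had 6 in direct-only, 1 in indirect-only and 9 in cells with neither kind. These are 27.9 (10.2 to 60.7), 6.42 (0.16 to 35.8) and 7.29 (3.33 to 13.8) CPM. *Isl1*, a factor of direct-pathway cells, was at 18.6, 0 and 21.1 CPM in the same order, from 4, 0 and 26 UMIs. For both genes the intervals overlapped, so the kinds of cell could not be told apart by them.

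Atypical cells with at least 2 members detected after thinning (479 cells) were set beside those with none detected (140 cells). Genes that are not members were used, at median depths of 1692 and 1820.5 UMIs. *Rxrg* was at 121, 280.4 and 170.0 CPM in the first and 39.1, 38.6 and 76.6 CPM in the second, a pooled log2 ratio of 1.77 (0.98 to 2.68). These values rested on 37, 34 and 78 UMIs in the first and 7, 1 and 6 in the second. The homozygous interval (-0.04 to 2.64) included 0. Genes named from this split had to have the same sign in each library, so a shared direction was set by that rule. *Fbxl16*, an F-box protein, had a pooled log2 ratio of 1.79 (0.48 to 3.47) and *Hpca*, a neuronal calcium sensor, of 1.62 (0.82 to 2.53). The remaining 7 of the 10 highest genes, *Otud6b*, *Agap2*, *Rprml*, *Arhgdib*, *Dbp*, *Ulk2* and *Phactr3*, lay between 1.03 and 1.57, and the intervals of *Arhgdib*, *Dbp* and *Ulk2* included 0. With members counted before thinning, which gave 650 cells with 2 or more members and 59 with none, *Dbp* was at -0.19. Of 3200 ranked genes, 2.12% (68) were at least 2-fold higher in cells with 2 or more members, and 155 were at least 2-fold lower. At the low end stood the nuclear noncoding RNAs *Malat1*, at 3071, 775 and 987 CPM against 25995, 18080 and 9788 CPM, and *Xist*, at 75.5, 148 and 15.3 CPM against 1066, 424 and 102 CPM. In typical cells *Malat1* was at 1130, 348 and 594 CPM, so the atypical cells without members stood above both. *Ogt*, an O-GlcNAc transferase, *Zfp36l1*, an RNA-decay factor, and *Cdh2*, a cadherin, completed the 5 lowest, with pooled log2 ratios of -2.43, -2.40 and -2.33. In the wild-type library these cells also had more genes per cell (a median of 1067.5 against 908) and a lower mitochondrial share (8.59% against 10.6%). The part of these nuclear RNAs and shares in the result was not tested. The other striatal genes of a wider list summed to 1209 CPM in cells with 2 or more members and 660 CPM in cells with none, a pooled log2 ratio of 0.87 (0.65 to 1.11), and 4 of 9 were at least 2-fold higher. The pooled values mix libraries in unequal shares, since the wild-type gave 34.4% of the UMIs of cells with 2 or more members and 63.2% of those of cells with none. By library the log2 ratio of this sum was 0.96 (0.63 to 1.31), 0.49 (-0.12 to 1.16) and 0.62 (0.25 to 1.01). The GABAergic genes summed to 220 CPM in cells with 2 or more members and 205 CPM in cells with none. Their pooled log2 ratio was 0.11 (-0.32 to 0.56). Excitatory neuron genes summed to 2145 and 1842 CPM, a pooled log2 ratio of 0.22 (0.08 to 0.36). Within each library the intervals of both lists included 0. Several lists of other cell types were higher in the cells without members when the libraries were pooled. Cortical interneuron genes summed to 538, 329.8 and 634 CPM in cells with 2 or more members and 1301, 1041 and 689 CPM in cells with none, a pooled log2 ratio of -0.99 (-1.19 to -0.78). The oligodendrocyte-lineage sum had a pooled log2 ratio of -0.99 (-1.30 to -0.68), the astrocyte sum of -0.37 (-0.58 to -0.15) and that of the sparse cycling genes of -2.02 (-3.37 to -0.72). In the homozygous library the intervals of these 4 sums included 0. In the heterozygous library that of the astrocyte sum did too (-0.92 to 0.31), and the cycling genes were at 0 CPM in both kinds of cell. The summed hemoglobin genes were at 489, 74.2 and 63.2 CPM in cells with 2 or more members and at 246, 38.6 and 3854 CPM in cells with none. The sum in homozygous cells without members thus stood apart, and the part of these genes in the result was not tested.

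This wider list of striatal projection neuron genes, which leaves out the members, had 22 of its 24 genes in the table. Of those that passed the minimum, 4 of 7, 6 of 8 and 5 of 8 were at least 2-fold higher in atypical than in typical cells, against 3.31%, 3.95% and 2.08% of all ranked genes, with median log2 ratios of 1.33, 2.24 and 2.01 where all ranked genes had 0.04, -0.07 and -0.08. A gene low in typical cells could pass the minimum only by being high in atypical cells, so these counts describe the list and are no support for it. *Rxrg* had log2 ratios of 4.0, 5.41 and 4.12 and *Rarb*, a retinoic acid receptor, of 3.57, 5.42 and 3.21, although *Rarb* was under the minimum in all 3 libraries. *Bcl11b*, a zinc finger factor shared by striatal and layer 5 neurons, was at 1.33, 1.88 and 1.97. Not every striatal gene was higher: *Rasgrp2*, a Rap activator, was at -0.24, -0.02 and -0.32. *Adcy5*, the main striatal adenylyl cyclase, was at 0.33, 0.10 and 0.16, with intervals that included 0, and was under the minimum in all 3 libraries with 13, 4 and 13 UMIs in atypical cells. Over other filtered cells the list had medians of 1.42, 2.16 and 1.67, where all ranked genes had -0.40, -0.29 and -0.40. There 6 of 10, 8 of 9 and 8 of 11 were at least 2-fold higher, against 2.42%, 2.4% and 2.09% of all ranked genes, and 2, 0 and 2 were at least 2-fold lower, against 22.2%, 18.6% and 25%. Lower than in other filtered cells were *Ebf1*, at 17.8, 13.9 and 25.5 CPM against 42.9, 24.8 and 56.4 CPM, and *Sp9*, at 20.7, 9.25 and 17.4 CPM against 75.7, 29.2 and 35.7 CPM, both transcription factors of developing striatal neurons.

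A list of dopamine and cyclic AMP signaling genes shares *Gnal*, *Adcy5* and *Pde1b* with the striatal list. Of 18 that passed the minimum in each library, 1, 1 and 2 were at least 2-fold higher and 0, 2 and 0 at least 2-fold lower in atypical than in typical cells. Of all ranked genes, 3.31%, 3.95% and 2.08% were at least 2-fold higher and 1.9%, 8.4% and 2.83% at least 2-fold lower. Its medians were 0.14, -0.14 and 0.04. *Pde1b*, a calcium-dependent phosphodiesterase, was at 48.8, 50.9 and 51.0 CPM against 9.54, 7.87 and 12.3 CPM. *Gnas*, the stimulatory G-protein alpha subunit, was at -0.24, -0.79 and -0.50. *Prkaca*, a catalytic subunit of protein kinase A, was at -0.68, -2.17 and -0.55, and *Ppp3ca*, a calcineurin subunit, at 0.19, 0.62 and 1.03.

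The atypical cells were low in genes of cortical excitatory neurons, which restates how the authors chose them and is no independent check. Of those that passed the minimum, 6 of 7, 4 of 6 and 7 of 8 were at least 2-fold lower than in typical cells, against the 1.9%, 8.4% and 2.83% of all ranked genes, with medians of -1.69, -2.07 and -1.80. The list's sum was nearly level in the heterozygous library, at 3325 against 3724 CPM, where *Nrgn*, a postsynaptic protein, was at 2354 against 2062 CPM. *Neurod6*, a factor of cortical projection neurons, was at 50.3, 46.2 and 55.0 CPM against 201, 246 and 240 CPM, and the vesicular glutamate transporter *Slc17a7* at 11.8, 9.2 and 16.1 CPM against 38.4, 46.9 and 38.5 CPM. In empty droplets *Neurod6* was at 118, 164 and 153 CPM and in reference cells at 34.1, 106 and 51.1 CPM, so its counts in atypical cells could not be told from background. Genes shared by GABAergic neurons summed to 263, 166 and 173 CPM against 104, 77.8 and 75.1 CPM in typical cells, with log2 ratios of 2.03, 1.30 and 2.30 for *Gad2* and of 1.35, 1.42 and 1.01 for the vesicular GABA transporter *Slc32a1*. *Gad1* (3 UMIs, 13.9 against 18.1 CPM) and *Dlx5* (1 UMI, 4.62 against 6.05 CPM) were lower than in typical cells in the heterozygous library. So was *Dlx1* in the homozygous library (5 UMIs, 6.71 against 9.55 CPM). Over other filtered cells the GABAergic genes that passed the minimum had medians of -1.68, -1.01 and -1.25. *Gad2* was at 75.5, 27.7 and 53.7 CPM against 68.1, 31.0 and 44.0 CPM there, and *Slc32a1* at 44.4, 46.2 and 33.6 CPM against 29.8, 47.0 and 52.6 CPM. Astrocyte genes had medians of -0.48, -0.04 and -0.37 over typical cells. Cortical interneuron genes had medians of 0.34, -0.48 and -0.16 over them, with 0 of 2 at least 2-fold higher in each library. Microglial genes summed to 53.3, 41.6 and 21.5 CPM against 24.3, 12.8 and 14.3 CPM. The 4 hemoglobin genes of the blood list summed to 345, 60.1 and 997 CPM against 344, 44.5 and 85.6 CPM, so the homozygous atypical sum stood apart. The share of cells with a hemoglobin UMI did not, at 38.2%, 11.2% and 11.3% of atypical and 36.8%, 7.88% and 11.8% of typical cells. Leaving out all cells with a hemoglobin UMI, a choice made after seeing the data, gave 2.06, 2.76 and 2.60 for the summed members over typical cells. With all cells these were 2.07, 2.76 and 2.60. The same removal took the wild-type ratio of *Adora2a* over other filtered cells from 0.39 to -1.0. The part of these cells in the members' height was not tested. In these bulk-like sums, fewer cells using a gene and less RNA per cell cannot be told apart. The cells are called by their rule, atypical, and not by a cell type.

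**Figure D5:**
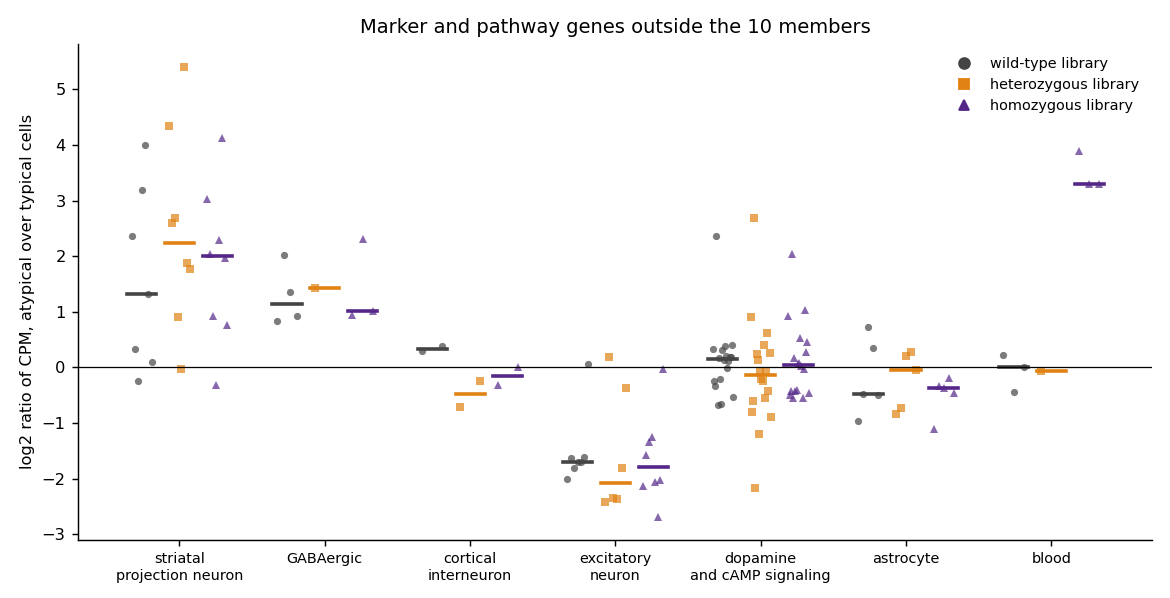
Log2 ratio of atypical over typical cells for the genes of each list that passed the minimum of 20 CPM, 1 point per gene, with a bar at the list's median in each library. The striatal list has medians of 1.33, 2.24 and 2.01, the excitatory list of -1.69, -2.07 and -1.80, and the dopamine and cyclic AMP list lies around 0.

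Between genotypes, the members were compared within typical and within atypical cells. In typical cells, the members summed to 436, 356 and 425 CPM, so the heterozygous sum was lower than the wild-type one by a log2 ratio of -0.29 (-0.38 to -0.21) and the homozygous ratio was -0.04 (-0.13 to 0.05). *Meis2* was lower in both, at -0.88 (-1.08 to -0.68) and -0.58 (-0.80 to -0.37). So was *Arpp21*, at -0.47 (-0.64 to -0.31) and -0.18 (-0.36 to -0.006). *Foxp1* was lower in the heterozygous library, at -0.24 (-0.41 to -0.07). *Ppp1r1b* was higher in the homozygous than in the wild-type library, at 0.94 (0.45 to 1.47), and *Gng7* at 0.32 (0.12 to 0.52). For *Meis2*, *Ppp1r1b* and *Gng7* empty droplets moved alike, with *Meis2* at -0.75 and -0.60 in the same order and *Ppp1r1b* at 0.87 and *Gng7* at 0.49 for homozygous over wild-type. *Arpp21* was at -0.33 and 0.32 in empty droplets, so its homozygous ratio had the opposite sign there. For heterozygous over wild-type, *Penk* and *Tac1* were at 0.85 and 0.59 in empty droplets. In typical cells they were at -0.05 and -0.15, with intervals that included 0. The typical levels of *Arpp21*, *Gng7*, *Ppp1r1b*, *Meis2*, *Tac1*, *Penk* and *Adora2a* were below those of the empty droplets in every library. Those of *Foxp1* were above them in every library, and *Drd1* and *Pde10a* varied by library. Empty droplets were at 147, 118 and 183 CPM for *Arpp21* and at 105, 62.1 and 69.2 CPM for *Meis2*. They were at 24.4, 29.7 and 44.6 CPM for *Ppp1r1b* and at 101, 110.3 and 142 CPM for *Gng7*. The part of free RNA in the differences between genotypes was not tested. None of the 4 members that passed the minimum differed by at least 2-fold in any of the 3 pairs of genotypes, against 0.78% of ranked genes for heterozygous over wild-type, 0.515% for homozygous over wild-type and 0.371% for homozygous over heterozygous.

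In atypical cells the members' sum was higher in both mutant libraries, with log2 ratios of 0.39 (0.24 to 0.54) for heterozygous and 0.49 (0.39 to 0.60) for homozygous over wild-type. Homozygous over heterozygous was 0.10 (-0.04 to 0.24). *Gng7* was higher than wild-type by 1.28 (0.99 to 1.58) and 0.80 (0.56 to 1.04) and *Arpp21* by 0.28 (0.02 to 0.53) and 0.65 (0.48 to 0.82). *Meis2* went the other way, at -1.40 (-2.15 to -0.73) and -0.73 (-1.09 to -0.37). *Penk* was at 1.35 (-0.10 to 2.76) and 1.69 (0.69 to 2.80), and *Adora2a* in the homozygous library at 1.44 (0.47 to 2.52). The same ratios in empty droplets were 0.12 and 0.49 for *Gng7*, -0.33 and 0.32 for *Arpp21*, -0.75 and -0.60 for *Meis2* and 0.85 and 1.05 for *Penk*, with 0.16 for *Adora2a* in the homozygous library, and their part in these differences was not tested. Of the 9 members that passed the minimum, 3 differed by at least 2-fold for heterozygous over wild-type, 2 for homozygous over wild-type and 1 for homozygous over heterozygous. Of all ranked genes 14.9%, 6.66% and 11.1% did so, and with 107 heterozygous atypical cells counting error alone is wide. The atypical share of neuronal cells also differed between the libraries, from 1.96% to 14.6%, as did the share of atypical cells with no member. The genotype, the library and the dissection cannot be told apart with 1 library each.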

How the data were processed

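Cells were sorted by tdTomato and counted by the authors with the 10X Chromium 3′ chemistry and Cell Ranger 2.0.1 on mm10 (per the labels). The deposited raw count tables hold UMI counts for all barcodes and, after the authors' filters, for 17396 cells with at least 1188 (heterozygous), 1533 (wild-type) or 1039 (homozygous) UMIs. The mitochondrial share is a fraction per cell in the deposited metadata, printed as a percentage. The deposited neuronal metadata marks each cell's library and whether the authors retained it. A deposited neuronal table of natural log values was read only for its 7174 gene names, and scaled residuals were not used here. UMI counts were summed per library and cell group and divided by the group's total (CPM), since per-cell values are not replicates and each genotype is 1 library. No column of per-sample values was left out (0).

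The rule for the members is their symbols. The members and lists were chosen with earlier results of these data known. Ratios used exact conditional binomial intervals, and genes were ranked at a mean of at least 20 CPM (2-fold threshold) or, within atypical cells, at least 50 UMIs. Genes named within atypical cells were the 10 highest and 5 lowest by pooled ratio with the same sign in each library, and the rule of naming 2 to 6 genes of each wider list was not kept. The text names more of the striatal list and fewer or none of several other lists, and these genes were chosen after their values were seen. Cells were thinned without replacement with a fixed seed to 1000 UMIs, and doublets were not called. Values of some listed genes are not reported here. The ratios and their intervals were tested on simulated sums with counting error only, of wild-type size and for genes of at least 20 CPM. Thinning was checked for its totals. Spread between cells, sparser genes, joint detection and the split of atypical cells were not simulated. Alternatives were other scalings (DESeq2 1.42.0 size factors and edgeR 4.0.16 TMM factors on the deposited counts), thinning, per-cell means, removal of the deepest cells and subtraction of the empty-droplet profile. Python 3.11.15, numpy 2.4.6, scipy 1.17.1, pandas 2.3.3, matplotlib 3.10.9 and R 4.3.3 were used.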

Additional observations from a re-analysis of the deposited data

Results flagged for a closer look

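A few genes of the lists had ratios of opposite sign in different libraries with intervals on opposite sides of 0. These differences between libraries were not tested. *Nrgn*, a postsynaptic protein of cortical excitatory neurons and a marker by whose low level the authors set the cells apart, was higher in atypical than in typical cells of the heterozygous library, with a log2 ratio of 0.19 (0.06 to 0.32), but lower in the wild-type at -1.80 (-1.97 to -1.64) and the homozygous library at -1.33 (-1.44 to -1.23). *Sst*, the somatostatin gene of a class of cortical interneurons, had ratios of 0.29 (0.06 to 0.52), -0.72 (-1.38 to -0.13) and -0.32 (-0.62 to -0.04) in wild-type, heterozygous and homozygous order. *Slc1a3*, a glutamate transporter of astrocytes, had 0.73 (0.47 to 0.98) in the wild-type and -0.37 (-0.74 to -0.02) in the homozygous library.

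The members were also counted in barcodes of at least 500 UMIs that the authors' filters left out, which no comparison above used. There the 10 members summed to 534, 429 and 593 CPM in the wild-type, heterozygous and homozygous libraries, from 13948, 3809 and 5446 UMIs. Homozygous over wild-type was 0.15 (0.11 to 0.20) on the log2 scale, above 0 by more than counting error, and heterozygous over wild-type was -0.32 (-0.37 to -0.26). None of these ratios in filtered cells was of a member.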

How the results depend on the processing

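No paired analysis was possible because each genotype has 1 library and the labels give no replicate numbers, and for the same reason no library could be left out. No ratio of the summed members changed sign under any alternative run, although 45 of 162 alternative values of sums, counts and shares moved by more than their counting interval, or 1.5 times for a count. Of 1204 alternative values of single genes 31 had the opposite sign. Of these, 2 moved beyond the counting interval, *Adora2a* over other filtered cells in the wild-type library without cells with hemoglobin UMIs (0.39 to -1.0) and *Dbp* with members counted before thinning (1.10 to -0.19). Leaving out *Arpp21*, cells with hemoglobin UMIs or shared barcodes was chosen after seeing the data. For the wild-type, heterozygous and homozygous libraries in this order, the log2 ratio of the summed members over typical cells (2.07, 2.76 and 2.60) became 2.20, 2.92 and 2.78 with the empty-droplet profile subtracted at 10% and 2.36, 3.11 and 2.98 at 20%. It became 1.86, 2.54 and 2.23 without *Arpp21*. TMM factors gave 1.90 and 2.59 in the first 2, DESeq2 size factors 1.97 in the wild-type, and CPM without mitochondrial and ribosomal protein genes 2.70 in the homozygous library. Over other filtered cells the ratios of 1.49, 2.25 and 2.11 became 1.74, 2.47 and 2.37 without those genes, 1.95, 2.59 and 2.63 with DESeq2 size factors and 1.97, 2.53 and 2.63 with TMM factors. They became 1.64, 2.47 and 2.34 at 20% subtraction, 2.22 in the homozygous library at 10%, and 0.99, 1.94 and 1.67 without *Arpp21*. The wild-type ratio also became 1.37 with thinned cells, 1.28 as a mean over cells of UMIs per 10000, 1.36 without the 5% of cells with the most UMIs and 1.37 without cells with hemoglobin UMIs. Homozygous over wild-type in atypical cells (0.49) was 0.62 with DESeq2 and with TMM factors. In the wild-type library 10 members passed 2-fold at a minimum of 1 UMI. The shares of atypical cells with 2 or more members (45.1%, 57.0% and 60.8%) were 67.1%, 77.6% and 78.6% with no thinning, 20.1%, 23.4% and 25.3% for 3 or more members and 4.93%, 5.61% and 5.41% without *Foxp1*, *Meis2*, *Arpp21* and *Gng7*. The causes were not tested. Depth limits *Drd1*, *Adora2a*, *Penk* and *Pde10a* most, with at most 39 UMIs each in a library's atypical cells.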
